A study of Homo sapiens with 4 samples.

Results

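The EGR, NR4A and IER immediate early genes are 10 of the 24424 gene symbols with deposited counts, taken by symbol: EGR1, EGR2, EGR3, NR4A1, NR4A2, NR4A3, IER2, IER3, IER5 and IER5L. They were measured by RNA sequencing in BEAS-2B, a human bronchial epithelial line that was immortalised in culture, with 1 library in each of 4 groups. The labels give every group as BEAS-2B of wild type genotype. The control cells had no treatment, and the LPS cells received lipopolysaccharide, the TLR4 ligand of Gram-negative bacteria, for 2 h. The siOCLN+LPS cells were transfected with siRNA against occludin, a tight junction protein, for 24 h and then given LPS for 2 h, and the cells of the group labelled wtOCLN+LPS were transfected with wild-type occludin for 24 h and then given LPS for 2 h. No mock transfection is named for the control or LPS cells, so that transfection and its cargo cannot be told apart in comparisons with LPS. Since every group is a single library, no difference has a replicate check or a p-value, and the statements compare libraries, not conditions.

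Immediate early genes are transcribed within minutes of a stimulus without new protein synthesis, and their mRNAs are short-lived. Growth factor, stress and Toll-like receptor signals reach them through ERK and other MAP kinases, which act on serum response factor (SRF) with its ETS partners and on CREB, while a subset is driven by NF-kB. The EGR proteins are zinc finger transcription factors and the NR4A proteins are orphan nuclear receptors that act without a known hormone. IER2, IER5 and IER5L form a small family of nuclear regulators, and IER3 (also called IEX-1) is an unrelated stress and survival protein that shares only the name.

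Depth was 13867494 to 17500031 counts per library, and a single count corresponded to between 0.0571 and 0.0721 CPM (counts per 1000000 counts of the library). OCLN, the targeted gene, had 55.4 CPM in control and 50.4 CPM in LPS, with 21.0 CPM after the siRNA and 29.7 CPM after the transfection labelled wtOCLN. Because OCLN was 1.70-fold lower in that last library than in LPS (95% interval 1.52 to 1.91), against its label, nothing below can be read as the effect of more occludin. All 10 epithelial markers examined were at 1 CPM or more in every library, although EPCAM was only at 1.26 to 2.67 CPM. Of 6 immune markers, 1 reached 1 CPM: CD68, a lysosomal gene of macrophages, was at 16.6 CPM in control and in LPS, 4.98 in siOCLN+LPS and 7.49 after the transfection labelled wtOCLN, so that it was at least 2-fold below LPS in both transfected libraries. The T cell gene CD3E and the myeloid gene TYROBP were at 0 counts in all 4 libraries, and PTPRC had 3 counts in control and 0 elsewhere. Of 4 ciliated cell markers only CCDC39 reached 1 CPM (1.66 to 2.89 CPM), and FOXJ1 was at 0 in every library. Of 6 fibroblast markers only COL1A1 reached 1 CPM (55.2 to 62.7 CPM), and of 4 endothelial markers only CDH5 did, at 1.08 CPM in LPS. The summed level of the epithelial markers was 2662 CPM in control, 2301 in LPS, 4137 in siOCLN+LPS, with 4331 in the library labelled wtOCLN+LPS. Of the 10, 6 lay at least 2-fold above LPS after the siRNA and 5 after the transfection labelled wtOCLN, against 3.32% of all genes in each. The part of these markers and of CD68 in the values below was not tested.

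RefSeq promoter entries (GRCh38.p14) were found for 7 of the 10 members: EGR1, EGR2, NR4A1, NR4A3, IER2, IER5 and IER5L, with 10 start sites between them. EGR3, NR4A2 and IER3 had no entry, so their promoters were not searched. The 250 bases before each start were searched on both strands for the CArG box (the SRF binding element), for the CREB element TGACGTCA and its shorter core TGACG, for the EGR site GCGNGGGCG, for the NR4A element AAAGGTCA and for the NF-kB site. The core lies within the full CREB element, so that these 2 searches overlap. The windows of EGR1, EGR2 (the third of 3 starts), NR4A3 and IER5L are shown because they set the gene with the highest control level, its low paralogue with an identical CArG box, the member richest in core sites and the member with the lowest ratio of LPS to control side by side. Capitals mark matches to any of these motifs.
EGR1, chr5:138465229-138465478, + strand: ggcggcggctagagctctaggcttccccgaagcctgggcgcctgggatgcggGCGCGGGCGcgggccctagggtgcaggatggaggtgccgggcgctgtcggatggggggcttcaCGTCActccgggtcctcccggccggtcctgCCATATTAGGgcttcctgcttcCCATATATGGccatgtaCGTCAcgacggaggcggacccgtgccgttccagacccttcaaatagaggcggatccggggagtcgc
EGR2, chr10:62816367-62816616, - strand: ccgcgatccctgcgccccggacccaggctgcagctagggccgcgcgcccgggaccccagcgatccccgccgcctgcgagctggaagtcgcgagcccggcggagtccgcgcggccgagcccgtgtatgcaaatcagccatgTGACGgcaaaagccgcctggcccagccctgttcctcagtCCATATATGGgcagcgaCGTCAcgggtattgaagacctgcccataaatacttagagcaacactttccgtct
NR4A3, chr9:99821635-99821884, + strand: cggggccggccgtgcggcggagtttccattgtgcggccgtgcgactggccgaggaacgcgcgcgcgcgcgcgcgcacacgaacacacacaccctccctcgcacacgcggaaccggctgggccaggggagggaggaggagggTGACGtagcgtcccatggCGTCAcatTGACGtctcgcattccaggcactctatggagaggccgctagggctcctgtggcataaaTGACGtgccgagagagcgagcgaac
IER5L, chr9:129178262-129178511, - strand: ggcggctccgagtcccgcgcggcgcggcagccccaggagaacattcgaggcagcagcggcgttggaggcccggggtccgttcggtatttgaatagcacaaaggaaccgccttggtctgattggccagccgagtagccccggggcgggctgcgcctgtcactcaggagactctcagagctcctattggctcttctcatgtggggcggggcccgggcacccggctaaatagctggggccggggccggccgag
Counted back from -1 at the base before the start, EGR1 held CArG boxes at -105 to -96 (CCATATTAGG) and at -83 to -74 (CCATATATGG), core sites at -135 to -131 and -66 to -62, and an EGR site at -198 to -190. The EGR2 window held the same letters CCATATATGG at -71 to -62, with core sites at -110 to -106 and -54 to -50. A CArG box occurred in 1.16% of 35116 RefSeq windows of this length and a core site in 21.2%. NR4A3 had 4 core sites and no CArG box, and IER2 had 1 core site. The EGR site was found in 8.41% of all windows, the full CREB element in 1.65%, the NR4A element in 1.05% and the NF-kB site in 5.21%. IER5, IER5L, both NR4A1 windows and the first 2 of the 3 EGR2 windows held none of these letters. No window of the 7 searched members held the full CREB element, the NR4A element or the NF-kB site, and IER3 was not among these members. These matches describe letters in a window, not binding.

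Several members stood high in cells that had received nothing. EGR1 in control lay above 98.7% of the genes at 1 CPM or more, and NR4A1 above 96.6%. Per kb of the longest protein-coding transcript in GENCODE 29, EGR1 had the highest level in control at 186 CPM per kb, above NR4A1 at 94.2, IER3 at 92.3 and IER2 at 46.5. IER5L (30.2), NR4A3 (28.0) and IER5 (27.5) followed, and NR4A2 (6.24), EGR3 (2.41) and EGR2 (1.44) were low. In LPS the first place per kb went to IER3 at 326 CPM per kb, with EGR1 at 121. The 10 genes together took 1570 CPM in control, 1660 in LPS, 1537 in siOCLN+LPS, with 1518 in the library labelled wtOCLN+LPS. With library totals their sum thus stayed within a narrow range. The TMM factors, by which such sums would be divided, ran from 1.11 in control to 0.925 in the library labelled wtOCLN+LPS, so the order of the sums depends on scaling. The make-up of the sum, which does not depend on scaling, differed: EGR1 was 37.3% of the summed counts in control and 22.9% in LPS, and IER3 7.93% and 26.5%.

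**Figure D1:**
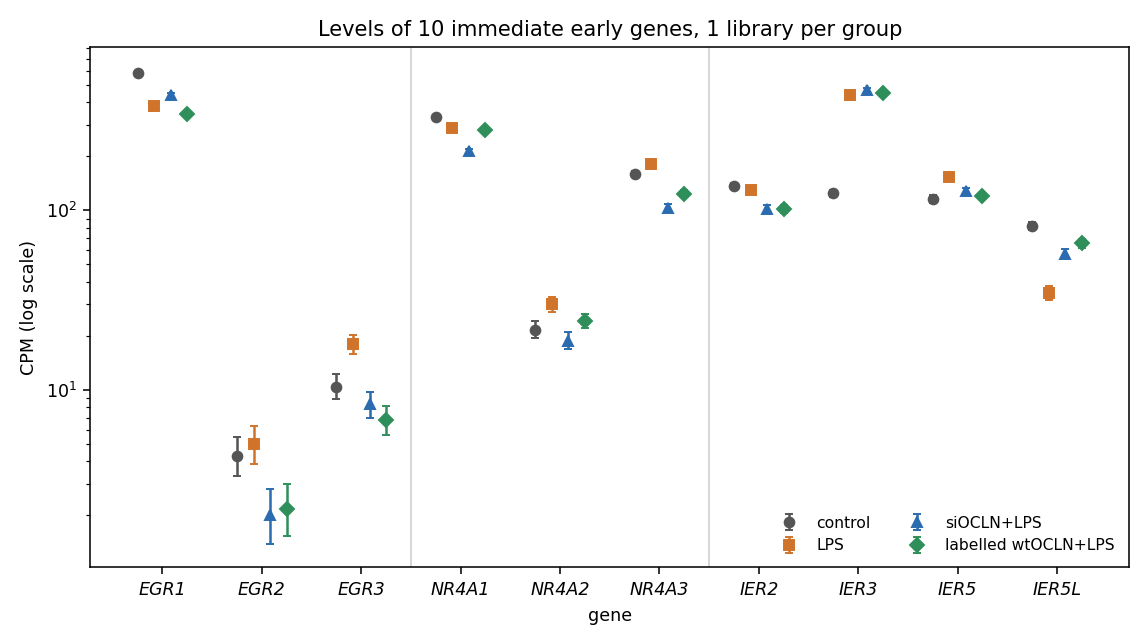
CPM of each gene on a log axis in the 4 libraries, with exact 95% Poisson intervals that cover counting error only; vertical lines separate the EGR, NR4A and IER genes. IER3 is lowest in control (125 CPM), IER5L is lowest in LPS (34.6 CPM), and EGR1 is highest in control (585 CPM).

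EGR1 encodes the best known EGR factor, a regulator of growth, matrix and coagulation genes. It was at 585 CPM in control (573 to 597), 380 in LPS (370 to 391), 438 in siOCLN+LPS (428 to 448), with 345 in the library labelled wtOCLN+LPS (336 to 354). In these bulk libraries, fewer expressing cells and less RNA per cell cannot be told apart. Control was the highest of the 4, and no 2 neighbours in this order overlapped in counting error. LPS was 1.54-fold below control (1.49 to 1.59), where 2.25% of 13551 tested genes lay lower. The siRNA library was 1.27-fold above the library labelled wtOCLN+LPS (1.23 to 1.31), and 4.13% of 13109 tested genes lay higher. The ratio of the library labelled wtOCLN+LPS to LPS was 0.908 with library totals and 1.02 with TMM scaling, so its direction depended on scaling.

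EGR2, known for its role in nerve myelination and in lymphocyte tolerance, was near the floor of what was tested. It was at 4.28 CPM in control (3.32 to 5.43), 4.98 in LPS (3.87 to 6.30), 2.00 in siOCLN+LPS (1.39 to 2.79), with 2.17 in the library labelled wtOCLN+LPS (1.54 to 2.98). Control and LPS could not be told apart, nor could the transfected libraries, while each transfected library lay below both. EGR2 in siOCLN+LPS was 2.48-fold below LPS (1.63 to 3.85) on 35 and 69 counts.

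EGR3, a paralogue that is itself induced by some of the same signals, was at 10.4 CPM in control (8.92 to 12.2), 18.0 in LPS (15.8 to 20.3), 8.30 in siOCLN+LPS (7.00 to 9.76), with 6.80 in the library labelled wtOCLN+LPS (5.63 to 8.14). The highest was LPS, 1.72-fold above control (1.41 to 2.10), and 2.46% of tested genes lay higher in that comparison. Below LPS, siOCLN+LPS stood 2.16-fold lower (1.76 to 2.67) and the library labelled wtOCLN+LPS 2.64-fold lower (2.11 to 3.31). The transfected libraries did not differ from each other beyond counting error (ratio 1.22, 0.951 to 1.57). EGR1 and EGR3 therefore lay on opposite sides of control in LPS. EGR4, the remaining paralogue, had only 3 to 9 counts in any library.

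NR4A1 (Nur77), a nuclear receptor with roles in apoptosis and in restraint of inflammation, was at 331 CPM in control (322 to 340), 289 in LPS (280 to 298), 213 in siOCLN+LPS (206 to 220), with 280 in the library labelled wtOCLN+LPS (272 to 288). The siRNA library was lowest, 1.36-fold below LPS (1.30 to 1.42) and 1.31-fold below the library labelled wtOCLN+LPS (1.26 to 1.37). The library labelled wtOCLN+LPS held 0.968 of the NR4A1 level of LPS (0.928 to 1.01), or 1.09 with TMM scaling, and at 0.847 of control, or 1.01 with TMM scaling.

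NR4A2 (Nurr1), best known in dopamine neurons, was at 21.6 CPM in control (19.4 to 24.1), 29.9 in LPS (27.1 to 32.9), 18.8 in siOCLN+LPS (16.8 to 20.9), with 24.2 in the library labelled wtOCLN+LPS (22.0 to 26.6). The LPS level was 1.38-fold above control (1.20 to 1.60) and siOCLN+LPS 1.59-fold below LPS (1.38 to 1.85). With library totals, control did not differ from either transfected library beyond counting error. The ratio of control to siOCLN+LPS changed side with TMM and median ratio scaling. The library labelled wtOCLN+LPS was at 1.12 of control (0.968 to 1.29), or 1.34 with TMM scaling. NR4A3 (Nor-1), the third receptor of the group, was at 160 CPM in control (154 to 166), 180 in LPS (173 to 187), 103 in siOCLN+LPS (98.3 to 108), with 124 in the library labelled wtOCLN+LPS (118 to 129). All 4 NR4A3 levels were distinct, with siOCLN+LPS 1.74-fold below LPS (1.64 to 1.85). All 3 NR4A genes were lower in siOCLN+LPS than in the library labelled wtOCLN+LPS, by 1.31-, 1.29- and 1.20-fold for NR4A1, NR4A2 and NR4A3, a comparison that uses neither LPS alone nor control.

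IER3, which limits NF-kB signalling outcomes and is itself an NF-kB target, was at 125 CPM in control (119 to 130), 441 in LPS (430 to 452), 467 in siOCLN+LPS (457 to 477), with 449 in the library labelled wtOCLN+LPS (439 to 459). Control was far below the other 3, which lay within 1.06-fold of each other with library totals. On that scale LPS and the library labelled wtOCLN+LPS could not be told apart. With TMM scaling siOCLN+LPS was 1.17-fold and the library labelled wtOCLN+LPS 1.14-fold above LPS, so the closeness of these levels depended on scaling. LPS was 3.54-fold above control (3.36 to 3.72), with 0.546% of tested genes higher. The siRNA library was 3.75-fold above control (3.57 to 3.94) and the library labelled wtOCLN+LPS 3.61-fold (3.43 to 3.79).

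IER2, a nuclear protein linked to cell motility, varied little: 136 CPM in control (131 to 142), 130 in LPS (124 to 136), 102 in siOCLN+LPS (97.3 to 107), with 102 in the library labelled wtOCLN+LPS (97.1 to 107). Control and LPS could not be told apart (ratio 0.952, 0.894 to 1.01, and 1.02 with TMM scaling), and both transfected libraries lay 1.27- and 1.28-fold below LPS. IER5, which promotes the activity of heat shock factor HSF1, was at 115 CPM in control (110 to 121), 153 in LPS (147 to 160), 128 in siOCLN+LPS (123 to 133), with 120 in the library labelled wtOCLN+LPS (115 to 125). The highest was LPS, 1.33-fold above control (1.25 to 1.42).

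IER5L, the least studied of the family, had its 4 libraries in the reverse order of its paralogue IER5, for which control and the library labelled wtOCLN+LPS could not be told apart. It was at 81.8 CPM in control (77.4 to 86.3), 34.6 in LPS (31.6 to 37.9), 57.1 in siOCLN+LPS (53.6 to 60.8), with 65.4 in the library labelled wtOCLN+LPS (61.6 to 69.3). With library totals all 4 levels were distinct. LPS was 2.36-fold below control (2.13 to 2.63), the rank of 12 from the lowest among 13551 tested genes. The transfected LPS libraries stood between: 1.65-fold (1.48 to 1.84) and 1.89-fold (1.70 to 2.11) above LPS, and 1.43-fold (1.32 to 1.56) and 1.25-fold (1.15 to 1.36) below control. The library labelled wtOCLN+LPS was at 0.800 of control for IER5L, or 0.958 with TMM scaling. For IER5 the same ratio was 1.04, or 1.25 with TMM scaling.

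**Figure D2:**
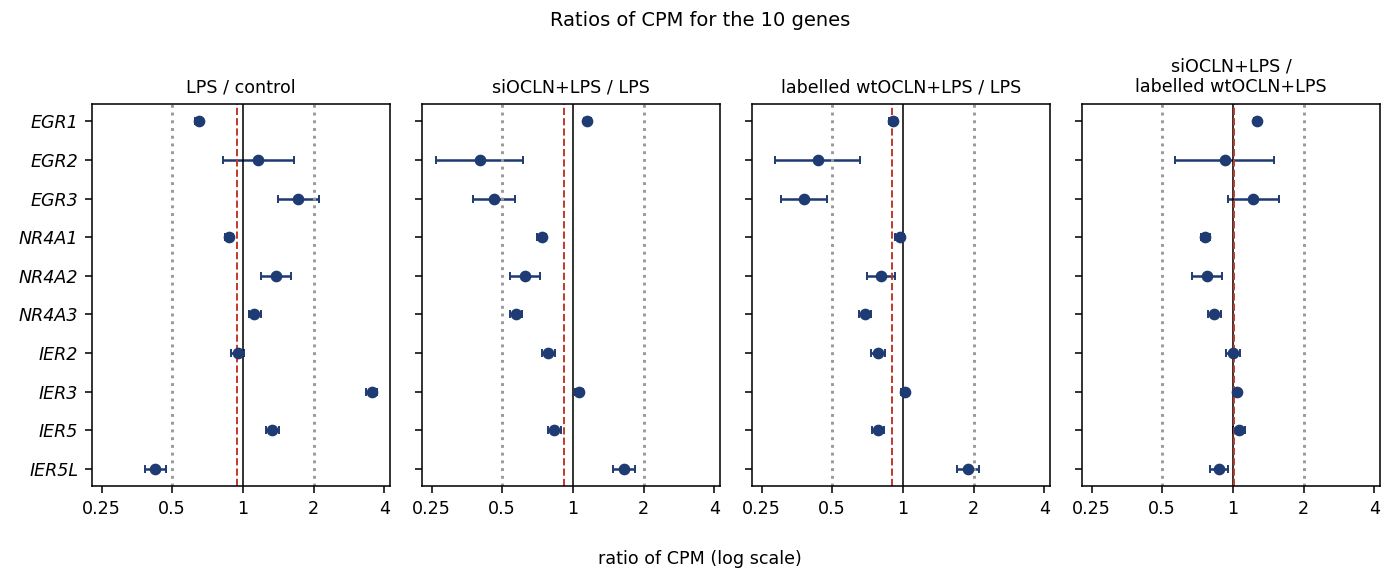
Ratio of CPM for each gene in 4 comparisons, on a log axis with exact 95% Clopper-Pearson intervals that cover counting error only. The solid line is 1, dotted lines are 2-fold, and the dashed line is the median of all tested genes (log2 ratios of -0.09, -0.13, -0.15 and 0.02 from left to right). IER3 and IER5L lie outside the 2-fold lines in LPS against control.

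The threshold for calling a gene was a difference of at least 1 in log2(CPM + 1), which is 2-fold, and genes had to reach 1 CPM in one of the compared libraries. This scale understates low genes such as EGR2. All 10 members were tested in every comparison. In LPS against control 1 member was higher (IER3), where 1.60% of all tested genes were, and 1 lower (IER5L), where 0.207% were. By counting intervals 5 members lay above control, as 9.11% of all tested genes did, 3 below, as 31.0% did, and for 2 the interval held 1. The members' median log2 ratio was 0.17, against -0.09 over all tested genes.

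Both transfected libraries are compared with the same LPS library, so the 2 comparisons are not independent. In siOCLN+LPS against LPS no member was higher (3.32% of all genes were) and EGR3 alone was lower (3.92% of all genes). In the library labelled wtOCLN+LPS against LPS the counts were again 0 higher (3.32% of all genes) and EGR3 lower (3.69%). A count of 1 among 10 members is too small to set against these shares. The members' medians were -0.39 and -0.32, against -0.13 and -0.15 over all tested genes. Beyond counting error, 7 members lay below LPS in each, where 42.5% of all tested genes did in siOCLN+LPS and 44.0% in the other. Such shares, in every comparison, were not matched to the members' counts, on which the width of an interval depends. Above LPS lay 3 in siOCLN+LPS (EGR1, IER3 and IER5L, against 24.7% of all genes) and 1 in the library labelled wtOCLN+LPS (IER5L, against 22.8%). EGR1, among the 7 lower in the library labelled wtOCLN+LPS, changed side with TMM and median ratio scaling. NR4A2, also among these 7, went from 0.810 to 0.909 of LPS with TMM scaling. NR4A1 and IER3, not told apart from LPS there with library totals, went from 0.968 to 1.09 and from 1.02 to 1.14. The number of members on each side thus depended on scaling. With TMM scaling the call of EGR3 in siOCLN+LPS was lost and IER5L passed 2-fold above LPS in the other comparison. Scaling also moved the split over all genes past 2-fold, from 45.9% higher to 61.5% with TMM in siOCLN+LPS and from 47.4% to 64.9% in the library labelled wtOCLN+LPS.

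Between the transfected libraries no member was 2-fold apart, where 0.0763% of all tested genes were higher and 0.290% lower in siOCLN+LPS. By counting intervals 3 members were higher in siOCLN+LPS (EGR1, IER3 and IER5), against 15.1% of all tested genes, 4 lower (the 3 NR4A genes and IER5L), against 11.9%, and 3 not told apart. Against control, IER3 was the single member at least 2-fold higher in siOCLN+LPS (3.94% of all genes), and likewise in the library labelled wtOCLN+LPS (3.91% of all genes). None was at least 2-fold lower, against 5.44% and 4.91% of all genes. Beyond counting error 2 members lay above control in siOCLN+LPS (IER3 and IER5, against 21.7% of all genes) and 7 below (50.5%). For the library labelled wtOCLN+LPS the counts were 1 above (IER3, against 20.1%) and 7 below (52.4%). These counts rest on library totals. With TMM scaling the ratio of that library to control went from 0.847 to 1.01 for NR4A1, from 1.12 to 1.34 for NR4A2 and from 1.04 to 1.25 for IER5. EGR3 in siOCLN+LPS was at 0.794 of control (0.631 to 0.998), or 0.938 with TMM scaling.

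Ratios of counts between 2 members of 1 library do not depend on scaling, and the pairs given here were chosen after their values were seen. IER3 had 0.213 counts per count of EGR1 in control (0.203 to 0.223), 1.16 in LPS (1.12 to 1.20), 1.07 in siOCLN+LPS (1.03 to 1.10), with 1.30 in the library labelled wtOCLN+LPS (1.26 to 1.35). No 2 of the 4 intervals overlapped, with control the lowest. EGR1 had 56.0 counts per count of EGR3 in control (48.0 to 65.7), 21.2 in LPS (18.6 to 24.1), 52.8 in siOCLN+LPS (44.8 to 62.6), with 50.7 in the library labelled wtOCLN+LPS (42.3 to 61.4). Here the LPS library alone stood apart, and the intervals of the other 3 overlapped. The IER5 to IER5L ratio was 1.41 in control (1.31 to 1.51), 4.43 in LPS (4.01 to 4.90), 2.24 in siOCLN+LPS (2.08 to 2.41), with 1.84 in the library labelled wtOCLN+LPS (1.71 to 1.98), and no 2 of these intervals overlapped. The NR4A1 to NR4A3 ratio was 2.07 in control (1.97 to 2.17), 1.61 in LPS (1.53 to 1.69), 2.07 in siOCLN+LPS (1.96 to 2.19), with 2.27 in the library labelled wtOCLN+LPS (2.15 to 2.39), again with LPS lowest.

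**Figure D3:**
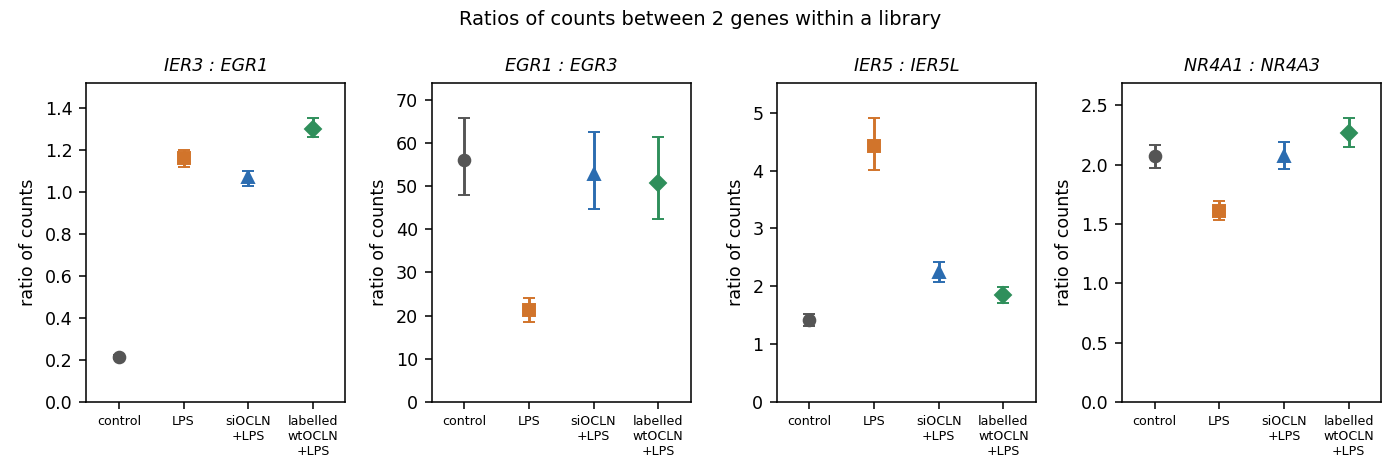
Ratio of the counts of 2 genes within each of the 4 libraries, on linear axes from 0, with exact 95% Clopper-Pearson intervals. Control is lowest for IER3 to EGR1 (0.213), and LPS is lowest for EGR1 to EGR3 (21.2) and NR4A1 to NR4A3 (1.61) and highest for IER5 to IER5L (4.43).

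Other immediate early genes, 52 symbols that leave out the members, gave 51 tested genes in LPS against control. Of these 7 were at least 2-fold higher, against 1.60% of all genes, and 1 lower, against 0.207%. Their median log2 ratio was 0.27, against -0.09 over all genes. Higher were the polo-like kinases PLK3 (4.40-fold, 4.01 to 4.83) and PLK2 (3.71-fold), the transcription factors CEBPD (3.69-fold) and KLF4 (2.92-fold), the EGFR ligand EREG (2.38-fold), the ERK phosphatase DUSP6 (2.05-fold) and TRIB1 (2.04-fold). ARC was lower, at 10.7 CPM in control and 4.76 in LPS, a call lost with the 3 scalings tried in place of library totals (8 higher and 0 lower) and with a pseudocount of 5 (6 and 0). FOS, the classical serum-response gene, stood at 0.640 of control (0.565 to 0.723), close to the 0.650 of EGR1 (0.628 to 0.672). Its paralogues lay on the other side of control: FOSB at 39.3 CPM in control and 69.6 in LPS, FOSL1 at 313 and 530, and FOSL2 at 319 and 531. In siOCLN+LPS against LPS the median was -0.12, against -0.13 over all genes. Of 51 genes 3 were higher (ZFP36L2, CTGF and ZFP36), against 3.32% of all genes, and 5 lower (ARC, SPRY4, FOSB, ATF3 and PPP1R15A), against 3.92%. With TMM, median ratio or upper quartile scaling these counts were 4 and 4. The library labelled wtOCLN+LPS had 2 higher and 3 lower, against 3.32% and 3.69% of all genes. Its median was -0.01, against -0.15 over all genes, and the 3 scalings turned the balance to 4 higher and 2 lower. ZFP36L2, an mRNA decay factor, was highest at 3.44- and 3.55-fold above LPS.

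Of the EGR and NR4A partners, 4 of 7 were tested and none was 2-fold apart in LPS against control or in either transfected library against LPS. The EGR corepressor NAB1 was at 182 CPM in control and 285 in LPS, 1.57-fold higher (1.49 to 1.65). NAB2, a corepressor gene that EGR factors themselves induce, was at 124 CPM in control, 94.2 in LPS, 61.1 in siOCLN+LPS, with 62.1 in the library labelled wtOCLN+LPS. NAB2 was highest in control, as EGR1 was, and lower in both transfected libraries than in LPS, whereas EGR1 in siOCLN+LPS lay above LPS. WT1 had 0 counts in all 4 libraries.

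Of 33 tested ERK, SRF and CREB inputs upstream of these genes, 1 lay at least 2-fold above control in LPS, against 1.60% of all genes, and none below. It was MAP3K8, the kinase that links Toll-like receptors to ERK, at 13.9 CPM in control and 96.7 in LPS (6.95-fold, 6.03 to 8.05). None of the inputs was 2-fold apart from LPS in either transfected library. SRF itself was at 125 CPM in control and 127 in LPS (ratio 1.02, 0.952 to 1.08). No cytoskeletal SRF target among 12 tested was 2-fold apart in LPS against control. After the siRNA 2 of 12 were at least 2-fold above LPS, ACTA2 and MYL9, and after the transfection labelled wtOCLN none. Of all genes 3.32% were higher in each. With TMM, median ratio or upper quartile scaling the count was 2 in both. ACTA2 was at 4.54 CPM in LPS, against 10.4 and 9.54 after these transfections, in that order. MYL9 was at 61.2 CPM in LPS, against 127 and 118. The median log2 ratio of the 12 to LPS was 0.45 and 0.50, against -0.13 and -0.15 over all genes.

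NF-kB early targets other than IER3 had 15 of 16 members at least 2-fold above control in the LPS library, against 1.60% of all genes, and none below (median 2.66). IER3, at a log2 ratio of 1.81, lay below that median. In each transfected library 1 of 16 (BCL3) was at least 2-fold above LPS, as 3.32% of all genes were, and none below. Of 12 genes reported as EGR1 targets, in LPS 2 passed 2-fold above control, against 1.60% of all genes: the tissue factor gene F3 (2.73-fold) and PDGFB (2.31-fold). None passed 2-fold below, while EGR1 itself was lower. PDGFA, at 63.4 CPM in control and 35.4 in LPS, stood at 0.558 of control (0.500 to 0.622). Of 14 HSF1 targets, none was 2-fold apart in LPS against control. Each transfected library had HSPA6 and HSPA1B at least 2-fold below LPS and none above. Over all genes 3.92% were lower after the siRNA and 3.69% after the transfection labelled wtOCLN. HSPA6 had 187 counts in LPS, against 1 and 0 after these transfections, in that order. HSPA1B was at 77.1 CPM in LPS, against 31.1 and 34.0 CPM. With TMM or median ratio scaling 1 of the 2 calls was lost after the transfection labelled wtOCLN. HSPA1B shares near-identical sequence with HSPA1A, so its counts are uncertain.

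The genes with profiles nearest to a member were sought for the 3 members whose highest and lowest log2(CPM + 1) values were at least 1 apart (1939 of 13777 genes at 1 CPM, or 14.1%, were). The measure was the Euclidean distance between mean-centred log2(CPM + 1) values over the 4 libraries, among 11417 genes at 5 CPM or more in some library, and 4 points are few. IER3 was nearest to NFKB2, the NF-kB p100 precursor gene (distance 0.06), at 114 CPM in control and 410, 411 and 399 CPM in LPS, siOCLN+LPS and the library labelled wtOCLN+LPS. ICOSLG (0.10) and the A20-binding gene TNIP1 (0.11) followed. IER5L was nearest to FAM43A (0.06), at 19.1 CPM in control, 7.93 in LPS, 12.8 in siOCLN+LPS, with 14.9 in the library labelled wtOCLN+LPS. A readthrough symbol, LOC100499484-C9ORF174 (0.20), which is uncertain, and CCDC126 (0.21) came next. EGR3 was nearest to the non-coding LINC00641 (0.10), to the cell cycle kinase gene CDK6 (0.11) and to ERN1, the gene of the stress sensor IRE1 (0.12).

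**Figure D4:**
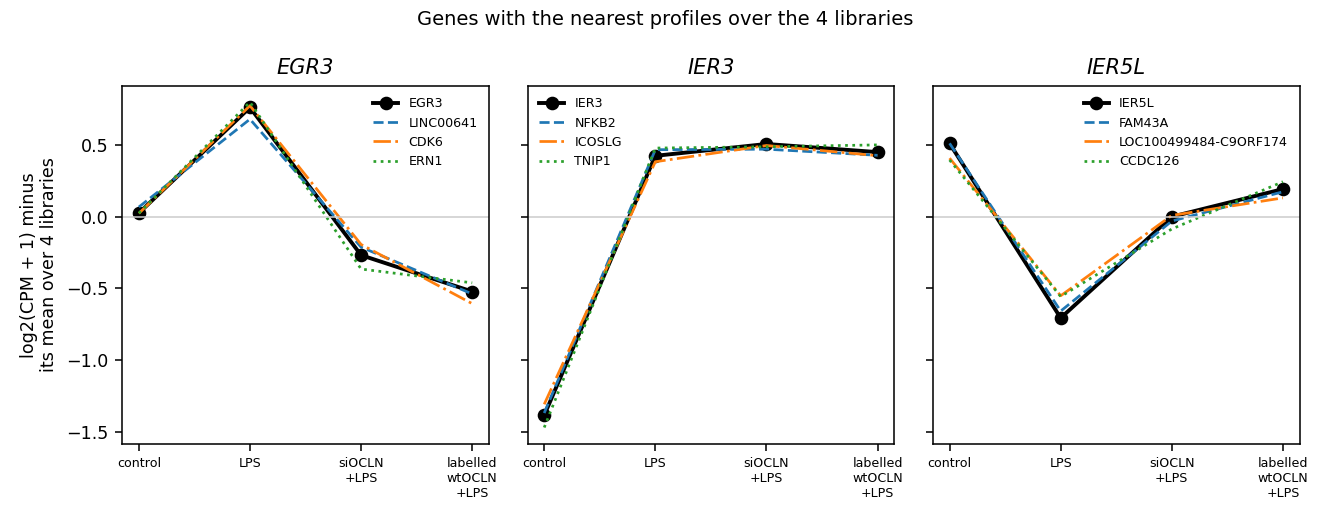
Log2(CPM + 1) of EGR3, IER3 and IER5L minus the mean over the 4 libraries (black), with the 3 genes of smallest Euclidean distance to each (coloured); lines join libraries only to guide the eye. EGR3 peaks in LPS, IER3 is low in control alone, and IER5L is lowest in LPS, and the nearest genes lie at distances of 0.06 to 0.21.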

How the data were processed

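The authors deposited whole-number read counts per gene symbol, 1 file per library. The submitters' processing notes name TopHat, Cufflinks and hg19 but give no version or role. Which program counted the reads, with which strand setting and annotation, is not given in the sources used here. EGR3, NR4A1, IER2, IER3 and IER5L overlap an opposite-strand gene in GENCODE 29, so their counts may hold reads of both. The RNA input was 1.3 µg per library, per the labels.

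CPM was computed from library totals. Ratios of CPM carry exact 95% Clopper-Pearson intervals, and single levels exact Poisson intervals. Both cover counting error only, not the spread between cultures, and without molecular identifiers reads are not independent molecules. With 1 library per group no count model could be fitted. Call steps were tested on simulated data.

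Members and gene lists were chosen with earlier results of these data known. Named genes were the 10 members, OCLN, SRF, EGR4, NAB1, NAB2, the 3 nearest profiles per member and up to 4 genes per list with the largest ratio. FOS, CD3E, TYROBP, FOXJ1, PTPRC, EPCAM, COL1A1, CDH5, CCDC39, CD68, WT1 and further genes past 2-fold were named after their values were seen. Promoter sequences came from RefSeq (GRCh38.p14). Scaling, pseudocounts of 0.1 and 5, filters and thresholds were varied. Python 3.11.15, NumPy 2.4.6, SciPy 1.17.1, pandas 2.3.3, R 4.3.3 and edgeR 4.0.16 (TMM and upper quartile factors) were used.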

Additional observations from a re-analysis of the deposited data

How the results depend on the processing

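No paired analysis was possible because each group had 1 library. The members at least 2-fold apart numbered 2 in LPS against control, 4 at a 1.5-fold threshold and 1 at 3-fold. For siOCLN+LPS against LPS the count was 1, but 0 with TMM, median ratio or upper quartile scaling, with a pseudocount of 5 and at 3-fold, 2 with a pseudocount of 0.1 and 5 at 1.5-fold. For the library labelled wtOCLN+LPS against LPS it was 1, but 2 with each of the 3 scalings and with a pseudocount of 0.1, 0 with a pseudocount of 5 and at 3-fold, and 3 at 1.5-fold. Against control it was 1 in each transfected library, 2 with a pseudocount of 0.1 in siOCLN+LPS, and 4 and 3 at 1.5-fold. None of the 10 members changed its side of 1 in a comparison where it was called, which covers only differences past 2-fold. Over the 3 scalings, 100 member ratios moved outside their counting interval and 80 stayed inside. Ratios of EGR1, NR4A1, NR4A2 and IER2 that were not called changed side in some comparisons.

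Among the lists, in siOCLN+LPS against LPS the NF-kB early targets past 2-fold were 1, or 2 with TMM or median ratio scaling, and the SRF and MRTF targets 2, or 0 with a pseudocount of 5. In the library labelled wtOCLN+LPS against LPS, NF-kB early targets were 1, or 2 with TMM or median ratio scaling. SRF and MRTF targets were 0 there, 2 with the 3 scalings and 1 with a pseudocount of 0.1. EGR1 target genes were 2 (1 higher and 1 lower), or 1 with the 3 scalings. HSF1 targets were 2, or 1 with TMM or median ratio scaling. Other immediate early genes were 5 (2 higher and 3 lower), or 3 with a pseudocount of 5 and 6 (4 and 2) with the 3 scalings. TMM scaling put the median of all genes at 0.01 in both transfected libraries against LPS, in place of -0.13 and -0.15. Depth limits EGR2 most, at 35 to 69 counts.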
